A study of Mus musculus with 2 samples.

Results

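The genes described here are 10 genes that set apart the sinusoidal endothelium of the liver, measured by single-cell RNA sequencing in endothelial cells that were captured together with hepatic stellate cells (HSCs). Among them, 8 mark the identity of liver sinusoidal endothelial cells (Stab1, Stab2, Lyve1, Clec4g, Fcgr2b, Oit3, Gpr182 and Dnase1l3), and 2 (Cd34 and Plvap) are genes that such cells are known to gain when they turn into ordinary capillary endothelium. They were chosen by name from 31054 measured features, with earlier results of these data known, and their own values do not enter the rule that draws the cells. The study isolated stellate cells from male mice by pronase and collagenase perfusion and a Nycodenz density gradient, after 4 weeks of treatment with carbon tetrachloride (CCl4), tamoxifen (TAM) and diphtheria toxin (DT), which every mouse received. The control library came from p16-LRTD mice, in which p16-CreERT2 drives recombination of the allele R26-CAG-LSL-RSR-tdTomato-2A-DTR but its Dre-dependent stop stays in place. The other came from p16-Alb-LRTD mice, which carried Alb-DreERT2 in addition, so that hepatocytes with high p16 expression gained the toxin receptor and were eliminated. The study saw very mild fibrosis in zones 1 and 2 of the lobule only in mice with Alb-DreERT2 and this allele. It speculates that the receptor leaked through the Cre-dependent stop. All mice were of C57BL/6 background, and the p16-Alb-LRTD mice were heterozygous. There was 1 library per genotype and the number of mice behind each is not given in the sources used here. Age was not given either, and no comparison could be tested. All intervals are 95% intervals for counting error alone, and leave out how far mice or preparations vary. Those of levels and ratios treat counted transcripts as independent, so they leave out how far cells vary as well.

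Sinusoidal endothelial cells line the exchange vessels of the liver. They have open pores without a basement membrane and clear waste molecules from the blood through scavenger and lectin receptors. In chronic liver injury they are known to lose pores and scavenger receptors and to lay down a basement membrane, a change called capillarization. The scavenger receptors among the members are Stab1 and Stab2, which take up modified proteins and hyaluronan, and Lyve1 is a hyaluronan receptor. Clec4g is a lectin, Fcgr2b the inhibitory Fc receptor that clears immune complexes, and Dnase1l3 a secreted nuclease that digests DNA in circulating particles. Gpr182 is a receptor that takes up chemokines, and Oit3 is a secreted zona pellucida domain protein. Cd34 is a sialomucin of capillary endothelium, and Plvap forms the diaphragms that close endothelial pores.

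In the mouse genome build GRCm38 (mm10), with the GENCODE vM21 annotation, Stab1 spans chr14:31139013-31168641, Stab2 chr10:86841198-87008025, Lyve1 chr7:110850607-110863239 and Clec4g chr8:3707064-3720651. Fcgr2b spans chr1:170958617-170976547, Oit3 chr10:59422958-59441778, Gpr182 chr10:127747276-127751732 and Dnase1l3 chr14:7964533-7994573. Plvap lies at chr8:71497765-71511752 and Cd34 at chr1:194938819-194961279. Cd34 is on the plus strand and the other 9 are on the minus strand. Every gene that overlaps a member in this annotation lies on the opposite strand, among them Zbtb39 at the end of Gpr182 and Gtpbp3 at the end of Plvap.

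The RefSeq promoter table (GRCm38.p6) held 5 of the 10 members. Of these, 3 are shown, for the scavenger receptor whose level was closest between the libraries (Stab2), the lectin that was also found in stellate cells (Clec4g) and the capillary gene with the lowest ratio (Cd34). Each line gives bases upstream of the gene, 5′ to 3′ on the strand of the gene. They come from chr10:87008026-87008192, chr8:3720652-3720901 and chr1:194938571-194938818.
Stab2: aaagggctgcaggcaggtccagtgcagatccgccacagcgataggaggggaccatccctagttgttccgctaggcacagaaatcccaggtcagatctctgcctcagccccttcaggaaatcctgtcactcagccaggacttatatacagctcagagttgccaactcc
Clec4g: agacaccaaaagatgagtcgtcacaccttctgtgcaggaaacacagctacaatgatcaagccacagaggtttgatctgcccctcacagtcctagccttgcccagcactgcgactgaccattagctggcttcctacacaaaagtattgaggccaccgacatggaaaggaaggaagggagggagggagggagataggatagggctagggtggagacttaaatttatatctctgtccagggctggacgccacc
Cd34: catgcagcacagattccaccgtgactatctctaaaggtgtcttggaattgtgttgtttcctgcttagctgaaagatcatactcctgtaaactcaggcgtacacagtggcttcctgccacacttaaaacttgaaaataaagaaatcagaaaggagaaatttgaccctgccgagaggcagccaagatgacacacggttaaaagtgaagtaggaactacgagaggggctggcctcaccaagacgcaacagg
The letters searched on both strands of the 250 bases before each start were AGATAA and TGATAA for GATA factors, CCGGAAG for ETS factors, TGCTGAC for MAF factors and ACAAAG for SOX factors. None of the 5 promoters held any of them, so no letter stands in capitals. Of 32851 promoters of that length, 16.6% held a GATA match, 6.91% an ETS match, 3.81% a MAF match and 16.5% a SOX match. The absence says only that these letters are not in these windows.

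The libraries held 193746596 and 162219167 unique molecular identifiers (UMIs, each counting 1 captured transcript) in 11149 barcodes for the control and 8806 for p16-Alb-LRTD. After filtering, 9004 and 7416 cells were kept. The libraries shared 95 barcode sequences, of which 18 were among kept cells of both libraries and 0 among endothelial cells. Endothelial cells were taken as those with at least 5 UMIs of Kdr, Ptprb and Cdh5 and under 15 of the stellate genes Lrat, Ecm1, Hgf and Reln per 10000 UMIs. This gave 549 cells in p16-LRTD (6.10% of kept cells, 5.61 to 6.61) and 383 in p16-Alb-LRTD (5.16%, 4.67 to 5.69). Scores between 4 and 5 left 25 and 26 barcodes just outside, and scores between 5 and 6 put 21 and 24 just inside. Stellate cells numbered 8092 and 6837, and both numbers describe a preparation meant to enrich them rather than the liver.

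The label held for only part of the endothelial class. In p16-LRTD 123 of the 549 cells (22.4%) and in p16-Alb-LRTD 103 of the 383 (26.9%) had at least 5 UMIs of the macrophage genes C1qa, C1qb and C1qc per 10000. Of these, 113 and 96 had too few Kdr and Ptprb UMIs to pass and entered through Cdh5 alone, the gene for VE-cadherin. The macrophage marker list, with all 10 genes present, summed to 26284 and 28651 CPM (UMIs scaled to a common total) in the cells with macrophage transcripts, against 42.1 and 50.1 CPM in the rest of the class. The Cdh5-only barcodes held Clec4g at 2.01 and 3.84 CPM, Gpr182 at 2.51 and 3.41 CPM, and Oit3 at 0.502 and 0.427 CPM, each far below the rest of the class. The remaining 426 and 280 endothelial cells without macrophage transcripts all passed on Kdr and Ptprb, and held the marker list with 8 of 8 genes, at 10681 and 10534 CPM. Values are therefore given for the class as the rule draws it and for these cells. Their median depth was 11781 and 11954 UMIs. Of the lymphatic markers, Prox1 was low but present in them, at 5.57 and 9.72 CPM, and Pdpn was near 0 (1.15 CPM and 0 of 3908961 UMIs).

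**Figure D1:**
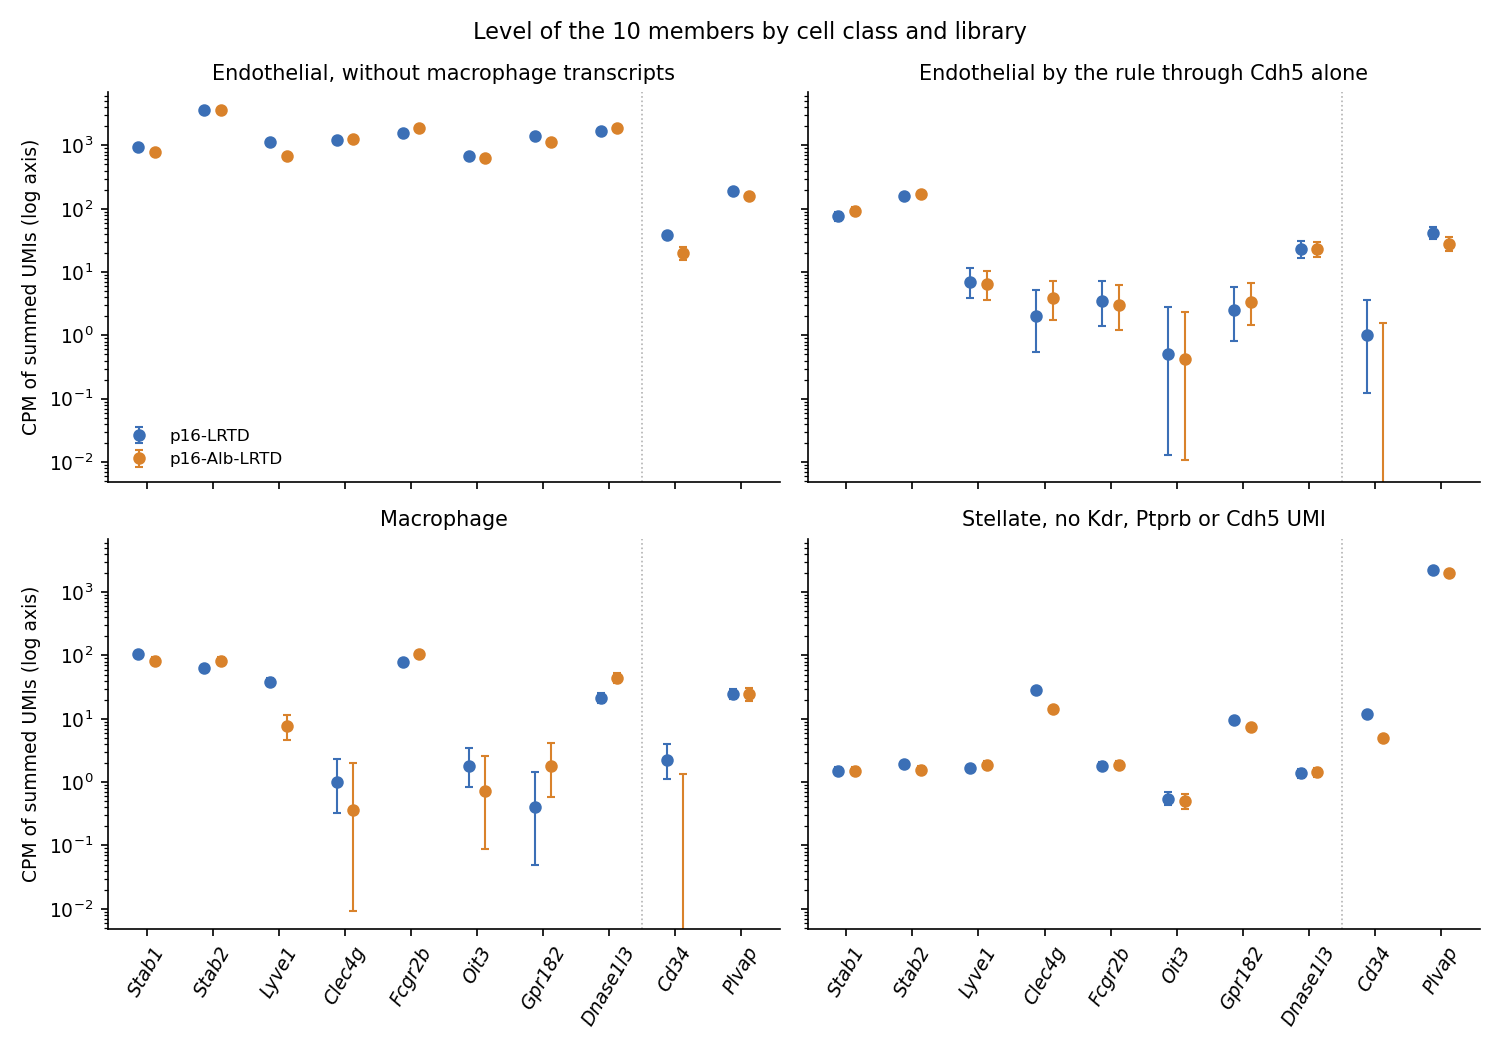
CPM of the 10 members (log axis) in 4 cell classes, with p16-LRTD in blue and p16-Alb-LRTD in orange. Bars are 95% counting intervals, and a bar without a point marks a count of 0. The identity members are highest in endothelial cells without macrophage transcripts, while Plvap is highest in stellate cells, at 2246 and 2033 CPM.

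The 8 identity members did not differ between the genotypes in 1 direction. As the rule draws the class, 7 of the 8 identity members were lower in p16-Alb-LRTD and the median log2 ratio (p16-Alb-LRTD over p16-LRTD) was -0.32, beside -0.08 over all 10261 genes of at least 5 CPM. Without macrophage transcripts 4 were higher and 4 lower, and the median was -0.07, beside -0.10 over 9852 genes. A ratio of at least 1.5-fold was taken as a call. In the class as drawn 0 of 8 were called higher and 2 (Lyve1 and Gpr182) lower, where 6.33% of all genes were called higher and 10.2% lower. Without macrophage transcripts Lyve1 alone was called lower and 0 of 8 higher, where the shares over all genes were 6.68% higher and 13.8% lower. When both libraries were given the same shares of pericentral-leaning and periportal-leaning cells, the Lyve1 log2 ratio was -0.58, just short of the 1.5-fold limit. With scaling by the trimmed mean of M-values (TMM) the median without macrophage transcripts was 0.02, so its sign depends on the scaling. Each member kept its own sign there. In the class as drawn the TMM shift (log2 -0.079) brings Gpr182, at -0.62, under 1.5-fold and ends its call.

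Lyve1 had the largest difference among the 8 identity members. It stood at 1113 CPM (1087 to 1140) in the p16-LRTD cells without macrophage transcripts and at 669 CPM (644 to 696) in those of p16-Alb-LRTD. The log2 ratio was -0.73 (-0.80 to -0.67), and -0.98 (-1.04 to -0.91) in the class as drawn. The cells differed across their range, with a median of 9.41 against 4.67 UMIs per 10000 and a 75th percentile of 15.9 against 9.55. After each cell was thinned to 5000 UMIs, 89.9% (86.5 to 92.6) of p16-LRTD cells and 77.9% (72.5 to 82.6) of p16-Alb-LRTD cells held a Lyve1 UMI. In stellate cells with no Kdr, Ptprb or Cdh5 UMI, which should lack the gene, that share was 0.802% and 0.804%. With both libraries given the pooled shares of pericentral-leaning and periportal-leaning cells, which are described further on, the log2 ratio was -0.58, just short of the 1.5-fold limit. It was -0.77 within pericentral-leaning and -0.53 within periportal-leaning cells. That split did not make the libraries alike in zonation, and the part of zonal shares in the Lyve1 difference was not tested. In macrophages Lyve1 stood at 38.5 CPM (191 UMIs) and 7.60 CPM (21 UMIs), while near-equal shares of them held any Lyve1 UMI before thinning, 7.73% and 8.65%, so that few barcodes carry these levels.

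The other 7 identity members differed less. Without macrophage transcripts the genotypes lay close for Stab2, with 3570 CPM (3522 to 3617) and 3601 CPM (3542 to 3661), a log2 ratio of 0.01 (-0.02 to 0.04). Stab1 stood at 933 and 775 CPM, with a log2 ratio of -0.27 (-0.33 to -0.20). The Fc receptor gene Fcgr2b had the highest ratio of the 8, at 1550 and 1888 CPM (0.28, 0.24 to 0.33). Dnase1l3 followed with 1711 and 1883 CPM (0.14, 0.09 to 0.18), and Clec4g with 1224 and 1271 CPM (0.05, 0.00 to 0.11). Gpr182 was lower, at 1419 against 1113 CPM (-0.35, -0.40 to -0.30), and Oit3 slightly so, at 689 against 623 CPM (-0.15, -0.22 to -0.07). In the class as drawn, the same 7 genes had log2 ratios from -0.62 (Gpr182) to 0.02 (Fcgr2b), and those of Stab2 (-0.22), Clec4g (-0.20) and Dnase1l3 (-0.12) were negative. Without macrophage transcripts the counting intervals of these genes leave out 0 except that of Stab2, which spans it, and Lyve1 alone of the 8 reached 1.5-fold.

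The capillarization members were both lower in p16-Alb-LRTD, and Cd34 rests on few UMIs. Cd34 was sparse in either library, with 232 UMIs over 426 control cells (38.0 CPM, 33.3 to 43.3) and 77 over the 280 from p16-Alb-LRTD (19.7 CPM, 15.5 to 24.6). Its log2 ratio was -0.95 (-1.34 to -0.57), and -1.24 (-1.63 to -0.86) in the class as drawn. After thinning, 14.5% (11.2 to 18.3) and 8.93% (5.86 to 12.9) of cells held a Cd34 UMI, and the richest 10% of cells held 59.1% and 68.8% of all its UMIs. Plvap, with 1166 and 631 UMIs, stood at 191 CPM (180 to 202) and 161 CPM (149 to 175), a log2 ratio of -0.24 (-0.39 to -0.10), and of -0.45 in the class as drawn. Nearly equal shares of cells held a Plvap UMI after thinning, 47.8% (42.9 to 52.8) and 46.8% (40.8 to 52.8). Of the 2, Cd34 was called lower, as were 13.8% of all genes, and Plvap was not called. Without the cell filter the log2 ratio of Cd34 was -0.49, which ends the call, and with pooled shares of pericentral-leaning and periportal-leaning cells it was -0.59, at the edge of the call.

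**Figure D2:**
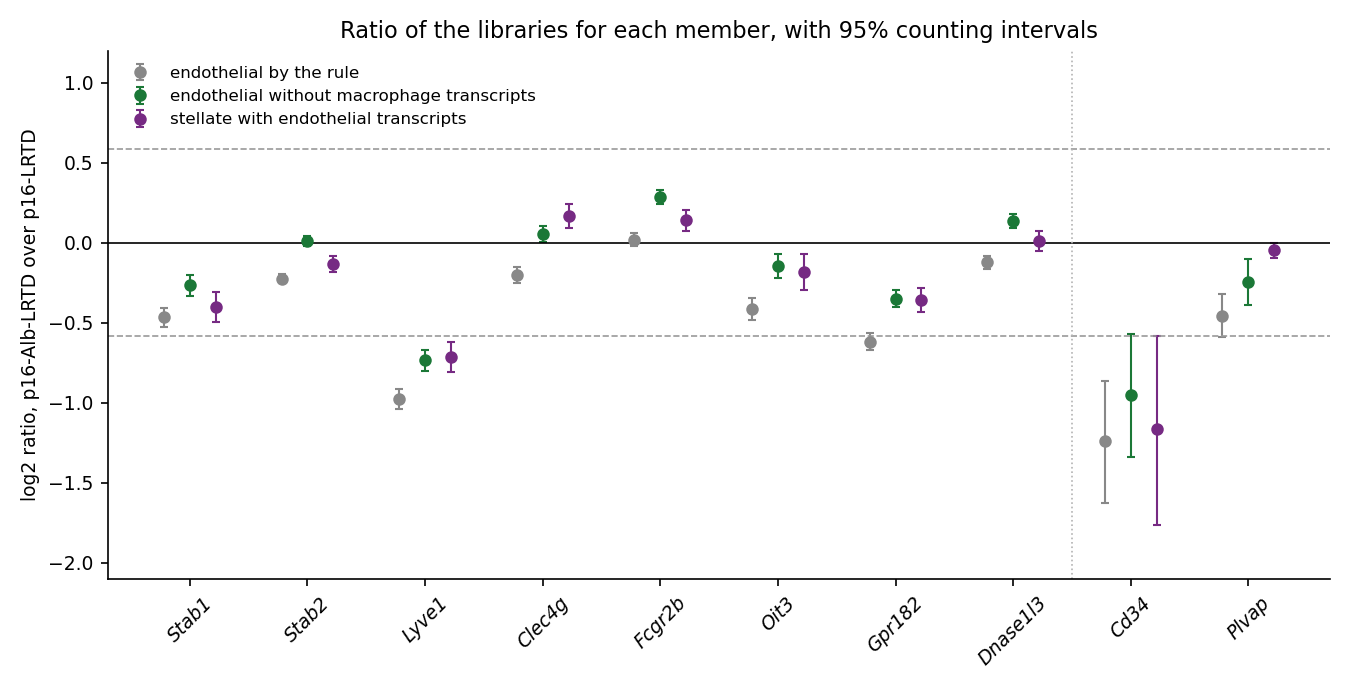
Log2 ratio of p16-Alb-LRTD over p16-LRTD for each member, with 95% counting intervals, in the endothelial class as drawn (grey), without macrophage transcripts (green) and in stellate barcodes with endothelial transcripts (purple). Dashed lines mark 1.5-fold, and Lyve1 (-0.73 in green) and Cd34 (-0.95) lie beyond the lower one.

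Some barcodes of the stellate class passed the limit for endothelial genes as well, 196 in p16-LRTD and 198 in p16-Alb-LRTD, and held a median of 24422 and 29698 UMIs. The depth exceeded that of either class, and whether they were doublets was not tested. These cells entered no endothelial value above, and their endothelial transcripts repeat the order of the members in part. The log2 ratio there was -0.71 (-0.81 to -0.62) for Lyve1, -0.40 for Stab1, -0.36 for Gpr182, 0.14 for Fcgr2b and 0.17 for Clec4g. Stab2 differed slightly, at -0.13 (-0.18 to -0.09). These barcodes come from the same 2 libraries and are no replicate of them.

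**Figure D3:**
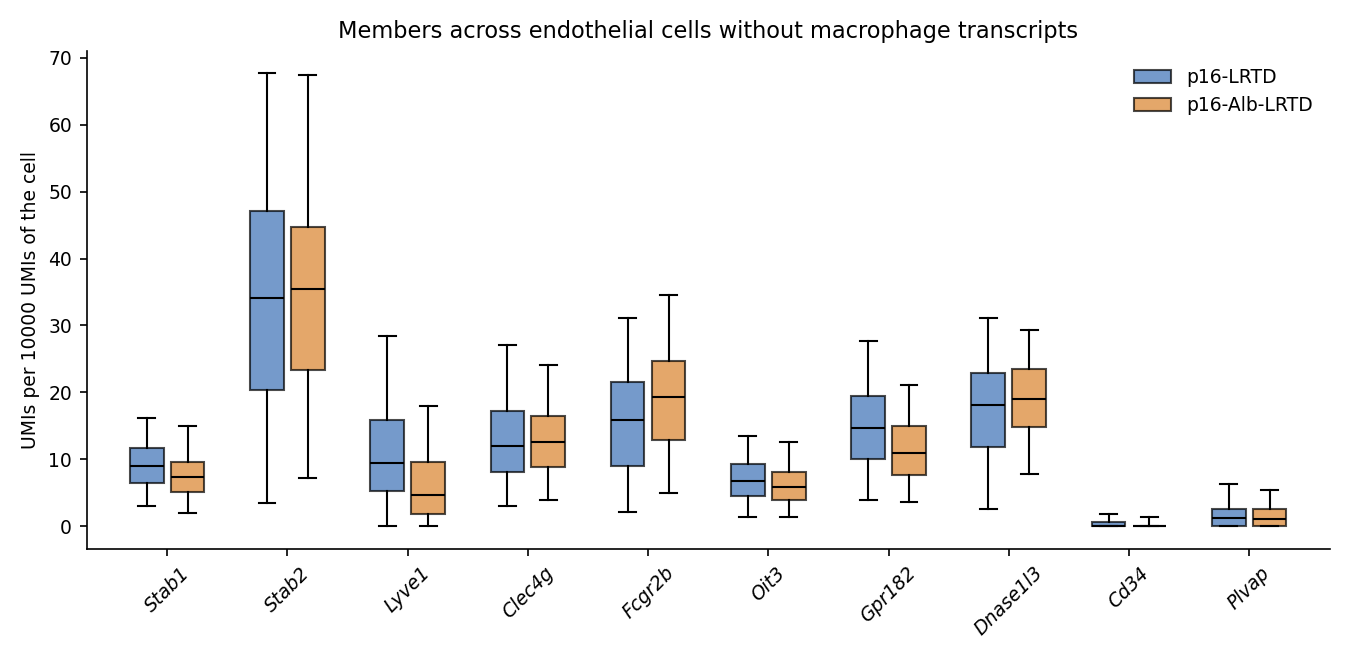
UMIs per 10000 UMIs of a cell for each member, over the 426 p16-LRTD (blue) and 280 p16-Alb-LRTD (orange) endothelial cells without macrophage transcripts. Boxes span the quartiles with the median as a line, and whiskers run from the 5th to the 95th percentile. The Lyve1 median is 9.41 against 4.67, while the Cd34 median is 0 in both.

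Stellate cells gave the background of the identity members. In stellate cells without an endothelial UMI (7248 and 6105), Stab1, Stab2, Lyve1, Fcgr2b, Oit3 and Dnase1l3 lay between 0.497 and 1.92 CPM. The ratio to the endothelial level ran from 0.000438 for Stab2 to 0.00279 for Lyve1, both in p16-Alb-LRTD. Over all stellate cells, barcodes with endothelial transcripts included, these genes lay higher, from 9.24 CPM (Oit3 in p16-LRTD) to 58.7 CPM (Stab2 in p16-Alb-LRTD). There 0 of the 8 identity members were called in either direction, where 3.13% of all genes were called higher and 3.06% lower.

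Clec4g and Gpr182 stood above the range of 0.497 to 1.92 CPM. In stellate cells without an endothelial UMI, Clec4g was at 28.3 CPM (27.4 to 29.2) for the control and 14.4 CPM (13.7 to 15.1) for p16-Alb-LRTD, a ratio to the endothelial level of 0.0231 and 0.0113. After thinning, 12.6% (11.8 to 13.3) and 6.22% (5.62 to 6.85) of these stellate cells held a Clec4g UMI, against 0.488% and 0% of macrophages (0 of 104). Gpr182 was at 9.51 and 7.46 CPM, a ratio of 0.00671 and 0.00670. The stellate cells with a Clec4g UMI had less Col3a1, a fibrillar collagen gene, at 1486 against 4395 CPM in p16-LRTD and 964 against 1369 CPM in p16-Alb-LRTD. They had more Colec11, a collectin gene, at 4759 against 3059 and 3837 against 2651 CPM. The stellate genes of the rule went different ways: Ecm1 was higher in them (3292 against 2804 and 3543 against 3326 CPM), Reln (2967 against 3424 and 2990 against 3467 CPM) and Hgf (885 against 978 and 1252 against 1306 CPM) were lower, and Lrat was higher in p16-LRTD (1375 against 1301 CPM) and lower in p16-Alb-LRTD (1342 against 1522 CPM). In these stellate barcodes the log2 ratio of Clec4g between the libraries was -0.97 (-1.06 to -0.89), where it was 0.05 in endothelial cells. Neither the difference between these ratios nor the part of free RNA in the stellate UMIs was tested.

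Plvap was for the most part a stellate transcript in this preparation. Stellate cells held 99.5% and 99.6% of its UMIs, at 2207 CPM (2199 to 2214) for the control and 2000 CPM (1992 to 2008) for p16-Alb-LRTD, and 98.0% and 96.9% of thinned stellate cells held at least 1. The endothelial level was lower by a ratio of 11.8 and 12.6 against stellate cells without an endothelial UMI. Plvap was also set against stellate genes in the same cells. For each UMI of Dcn, the proteoglycan gene that leads the stellate markers, endothelial cells without macrophage transcripts held 0.595 (0.553 to 0.640) and 0.622 (0.563 to 0.688) Plvap UMIs. Stellate cells held 0.122 and 0.0920, and macrophages 0.109 (0.0894 to 0.131) and 0.116 (0.0892 to 0.150). For each UMI of Col3a1, endothelial cells held 0.859 (0.793 to 0.929) and 6.44 (5.20 to 8.05) Plvap UMIs, stellate cells 0.553 and 1.53, and macrophages 0.25 and 1.11. For each UMI of Colec11 the endothelial values were 3.62 and 4.21 and the stellate ones 0.694 and 0.748. The excess over stellate cells thus depended on the gene chosen, and was smallest with Col3a1 in p16-LRTD. Macrophages held Plvap at 24.4 and 24.6 CPM. The stellate log2 ratio of Plvap was -0.14 (-0.15 to -0.13), and stellate markers in the endothelial cells summed to 903 CPM for the control and 727 CPM for p16-Alb-LRTD. The median over cells lay the other way, at 5.16 and 6.66 stellate marker UMIs per 10000. Their part in the endothelial Plvap difference was not tested.

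Cd34 also lay outside the endothelium. Endothelial cells as drawn held 8.30% and 7.59% of its UMIs, stellate cells 61.5% and 65.9%. Barcodes of none of the classes (156 and 92) held 29.8% and 26.6%, and there Cd34 was highest, at 249 CPM (232 to 266) and 133 CPM (117 to 149). Endothelial cells came next, then stellate cells at 11.9 and 5.16 CPM, and macrophages at 2.22 CPM (1.11 to 3.97) and 0 of 2762323 UMIs, which allows up to 1.09 CPM. The log2 ratio was negative in stellate cells too, at -1.20 (-1.33 to -1.08), and in the unclassed barcodes, at -0.91 (-1.11 to -0.71). The 2 capillary genes thus shared a direction in endothelial and stellate cells.

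Macrophages carried a part of the sinusoidal set. Stab1 was at 107 CPM (97.7 to 116) and 82.9 CPM (72.5 to 94.4) in them, 0.114 and 0.107 of the endothelial level. Fcgr2b was at 80.2 and 105 CPM, Stab2 at 62.7 and 81.8 CPM and Dnase1l3 at 21.4 and 43.8 CPM. The ratio to the level over all stellate cells was 7.23 and 5.48 for Stab1, 3.34 and 2.97 for Fcgr2b, and 1.31 and 1.39 for Stab2. For Dnase1l3 it was 0.84 (0.69 to 1.02) and 1.26 (1.04 to 1.51), so in p16-LRTD macrophages did not exceed stellate cells. Clec4g, Oit3 and Gpr182 lay at or below 1.81 CPM in both libraries. These 3 thus separate endothelial cells from macrophages here, while Stab1 and Fcgr2b do so less.

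The endothelial cells differed in where along the sinusoid their transcripts placed them. Pericentral sinusoidal cells, near the central vein, are known for the Wnt ligands Wnt2 and Wnt9b and for Rspo3, and periportal ones for the Notch ligand Dll4 and for Efnb2. All 6 genes of the pericentral list were called higher in p16-Alb-LRTD without macrophage transcripts, with a median log2 ratio of 1.97, where 6.68% of all genes were called higher and 13.8% lower. Wnt2 stood at 97.5 and 306 CPM, Rspo3 at 18.5 and 69.8, the thrombomodulin gene Thbd at 71.0 and 291, and Cdh13 at 116 and 494. Of the 6 periportal genes, 5 were lower and 2 called, with a median of -0.44. Dll4 stood at 198 and 86.5 CPM and Adgrg6 at 61.1 and 19.2 CPM. Cells with more pericentral than periportal UMIs made up 17.6% (14.1 to 21.6) of the p16-LRTD and 42.9% (37.0 to 48.9) of the p16-Alb-LRTD cells. The lists that make this split are the genes that differ, so the shares repeat the same readout. Preparation and genotype cannot be told apart with 1 library each.

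Most of the members were zoned in the same direction in both libraries, and Stab1, Stab2 and Oit3 were not. Gpr182 was lower in pericentral-leaning than in periportal-leaning cells, at 879 against 1551 CPM in p16-LRTD (log2 ratio -0.82) and 897 against 1308 CPM in p16-Alb-LRTD (-0.54). Lyve1 was lower there as well (-0.45 and -0.69), as were Clec4g (-0.42 and -0.37), Fcgr2b (-0.55 and -0.20), Dnase1l3 (-0.17 and -0.19) and Cd34 (-1.17 and -1.96). Plvap was higher, at 276 against 172 CPM (0.68, 0.49 to 0.87) and 210 against 122 CPM (0.78, 0.55 to 1.02). The capillarization members thus differed in opposite directions, by degree, since periportal-leaning cells still held Plvap and the pericentral Cd34 levels rest on 22 and 14 UMIs. The counting intervals for Stab1 held 0 in both libraries. Oit3 was lower in pericentral-leaning cells of p16-LRTD (-0.43) while its interval in p16-Alb-LRTD held 0 (0.03, -0.08 to 0.15). Stab2 was likewise lower there in p16-LRTD (-0.19, -0.24 to -0.14) and not in p16-Alb-LRTD (0.04, -0.01 to 0.09).

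**Figure D4:**
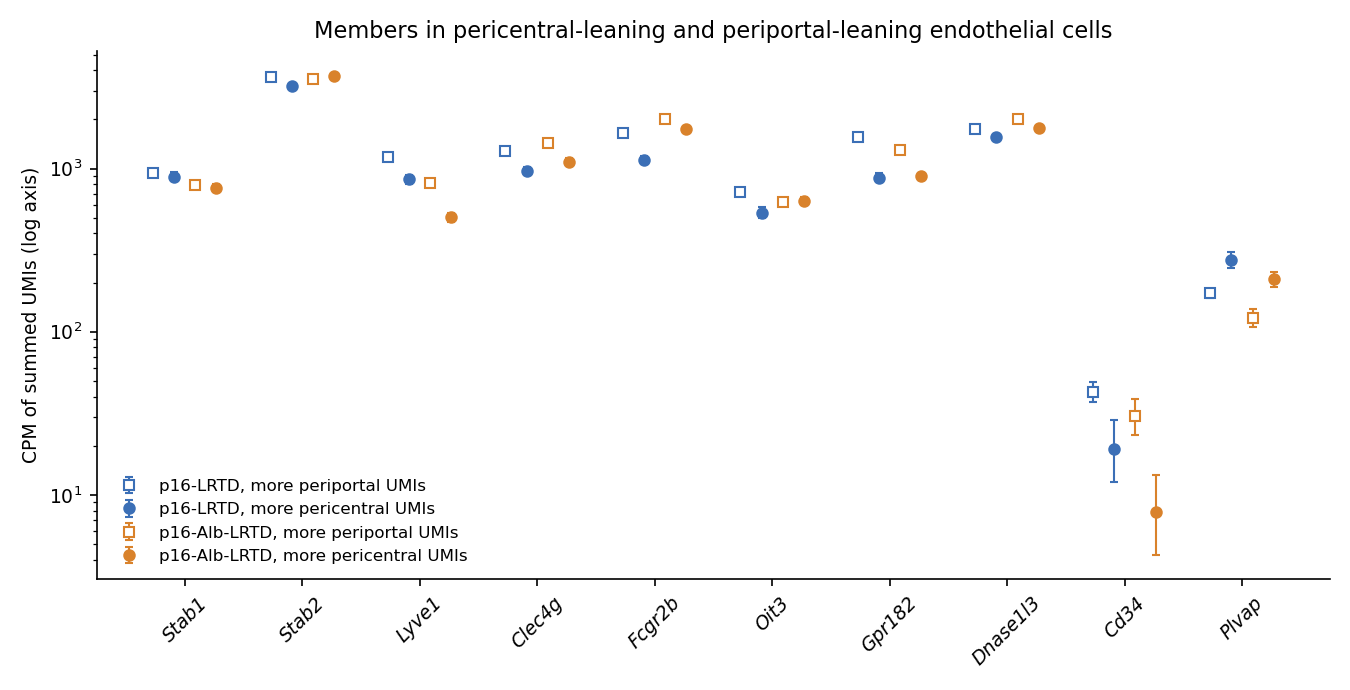
CPM of the members (log axis, 95% counting intervals) in cells with more periportal UMIs (open squares, 346 and 157 cells) and more pericentral UMIs (filled circles, 75 and 120 cells) of p16-LRTD (blue) and p16-Alb-LRTD (orange). Gpr182 and Cd34 are lower and Plvap higher in the pericentral-leaning cells of both libraries.

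Within the pericentral-leaning and the periportal-leaning cells the ratios of the members changed in part. The split did not make the libraries alike in zonation, since Thbd stood at 217 and 513 CPM and Cdh13 at 481 and 965 CPM within the pericentral-leaning cells, and Thbd at 37.1 and 106 CPM and Wnt2 at 55.9 and 139 CPM within the periportal-leaning ones. Lyve1 stayed lower in p16-Alb-LRTD, by a log2 ratio of -0.77 (-0.90 to -0.64) in pericentral-leaning and -0.53 (-0.61 to -0.45) in periportal-leaning cells. The Gpr182 ratio was 0.03 (-0.08 to 0.14) in pericentral-leaning and -0.25 (-0.31 to -0.18) in periportal-leaning cells. Fcgr2b was higher in both, at 0.64 (0.54 to 0.73) and 0.29 (0.23 to 0.34). Plvap was lower in both, at -0.39 (-0.61 to -0.17) and -0.49 (-0.70 to -0.29), further from 0 than with the parts together. Cd34 was lower in both, at -1.28 (-2.36 to -0.25) and -0.50 (-0.93 to -0.08). Stab1 was at -0.23 and -0.24. Oit3 took opposite signs, at 0.24 (0.10 to 0.38) in pericentral-leaning and -0.22 (-0.32 to -0.13) in periportal-leaning cells. Stab2 was higher in pericentral-leaning cells, at 0.19 (0.13 to 0.25), and near level in periportal-leaning ones, at -0.04 (-0.08 to 0.00). Clec4g (0.19 and 0.14) and Dnase1l3 (0.17 and 0.19) were higher in both.

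A few cells carried a gene of larger vessels and differed in part of the members. After thinning, 13 control cells and 7 from p16-Alb-LRTD held a UMI of Vwf, the von Willebrand factor gene of larger vessels. In p16-LRTD all 8 identity members were lower in these cells, by log2 ratios from -2.11 (Lyve1) to -0.43 (Gpr182) with intervals that leave out 0. In p16-Alb-LRTD that held for 5 of the 8, while the intervals held 0 for Clec4g (0.01, -0.32 to 0.32), Fcgr2b (-0.18, -0.47 to 0.09) and Gpr182 (-0.36, -0.76 to 0.01). Stab2 stood at 1298 and 1802 CPM, against 3632 in the other cells of each library. Lyve1 stood at 261 against 1131 and at 120 against 679 CPM. Plvap was higher, at 563 against 182 and 390 against 157 CPM. Cd34 was higher in p16-LRTD, at 269 (186 to 378) against 33.1 CPM, while in p16-Alb-LRTD its level of 60.1 against 19.0 CPM rests on 4 UMIs and the interval of the log2 ratio held 0 (1.66, -0.25 to 3.08). These cells had a median of 8412 and 8476 UMIs, and their number is too small to compare the genotypes. Cells with a Cd34 UMI (60 and 25 after thinning) shared little of that pattern. Stab2 stood at 3257 and 3314 CPM, lower than in the other cells by log2 ratios of -0.16 (-0.22 to -0.10) and -0.13 (-0.22 to -0.04). Oit3 and Fcgr2b were lower too in p16-LRTD, with intervals that leave out 0. Lyve1, Clec4g, Fcgr2b and Gpr182 were higher in p16-Alb-LRTD, again with intervals that leave out 0. Plvap stood at 183 and 130 CPM, with intervals of the log2 ratio that held 0.

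Across cells thinned to 5000 UMIs (414 and 280), the identity members varied together weakly. The median Pearson r over their 28 pairs was 0.29 in p16-LRTD and 0.19 in p16-Alb-LRTD, from 0.13 to 0.53 and from 0.03 to 0.40. The pair of Clec4g and Dnase1l3 had the highest r in both. Plvap had a median r of -0.26 and -0.14 with the 8 identity members, and Cd34 of -0.08 and 0.00. Points of 1 library share its preparation and free RNA, and sparse counts lower r. Among 6066 genes, those most like Stab2 were Mrc1, the mannose receptor (mean r 0.55 over the libraries), Kdr, a VEGF receptor gene that the rule used (0.51), the transcription factor gene Maf (0.51), Bmp2 (0.46) and Plpp1 (0.46). Those most like Plvap were Klf10 (0.25), Rdx (0.22), S100a10 (0.21), Cdh13 (0.19) and Ednrb (0.19).

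Other endothelial genes were read beside the members, without macrophage transcripts. Of 17 further sinusoidal genes, 3 were called higher and 0 lower, with a median log2 ratio of -0.03. Over all genes the shares called in these cells were 6.68% and 13.8%, and they stand beside the counts of the lists that follow too. The 3 were Clec1b, a lectin gene (136 and 230 CPM, 0.76), Bmp2, a ligand that controls hepcidin (1407 and 2166 CPM, 0.62), and F8, the coagulation factor VIII gene (858 and 1299 CPM, 0.60). Of 8 general endothelial genes 1 was called, Egfl7, lower at 1532 and 785 CPM (-0.96). Of 14 genes of continuous endothelium and its basement membrane, 3 were called higher and 5 lower, with a median of -0.27. The collagen IV genes Col4a1 (998 and 542 CPM, -0.88) and Col4a2 (439 and 242 CPM, -0.86), which build the basement membrane, were lower, as were Esm1 (385 and 58.6 CPM, -2.72), Vwf (-0.90) and Apln (90 and 0 UMIs). Cd9 (1.18), the adhesion molecule gene Vcam1 (0.94) and Ly6a (0.83) were higher. Of 5 flow and nitric oxide genes, 2 were called higher and 1 lower, with a median of 0.22. Flow-responsive Klf2 (781 and 1784 CPM, 1.19) and Klf4 (1.49) were higher and endothelin gene Edn1 lower (110 and 28 UMIs, -1.33), while the nitric oxide synthase gene Nos3 (0.02) and Cav2 (0.22) were not called. Calls differed in part in the class as drawn, where 6.33% of all genes were called higher and 10.2% lower. There 0 of the 17 further sinusoidal genes were called higher and 2 lower, and 0 and 2 of the general ones. For the 13 continuous endothelium genes at the minimum level the counts were 2 and 6, and for the flow genes 2 and 1.

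Genes that cells induce during dissociation moved with the comparison. All 12 of that list were above 0 in endothelial cells without macrophage transcripts and 11 were called, with a median log2 ratio of 0.94. Fos stood at 572 and 1182 CPM and Hspa1a at 2.79 and 19.2 CPM. In stellate cells all 12 were higher and 6 called, where 3.13% of all genes were called higher, with a median of 0.63. The hepatocyte marker list, with 6 of 6 genes present, summed to 82.3 and 107 CPM, the lymphocyte list to 8.69 and 0 CPM and the dividing-cell list to 29.5 and 2.30 CPM. Their part in the differences of the members was not tested.

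**Figure D5:**
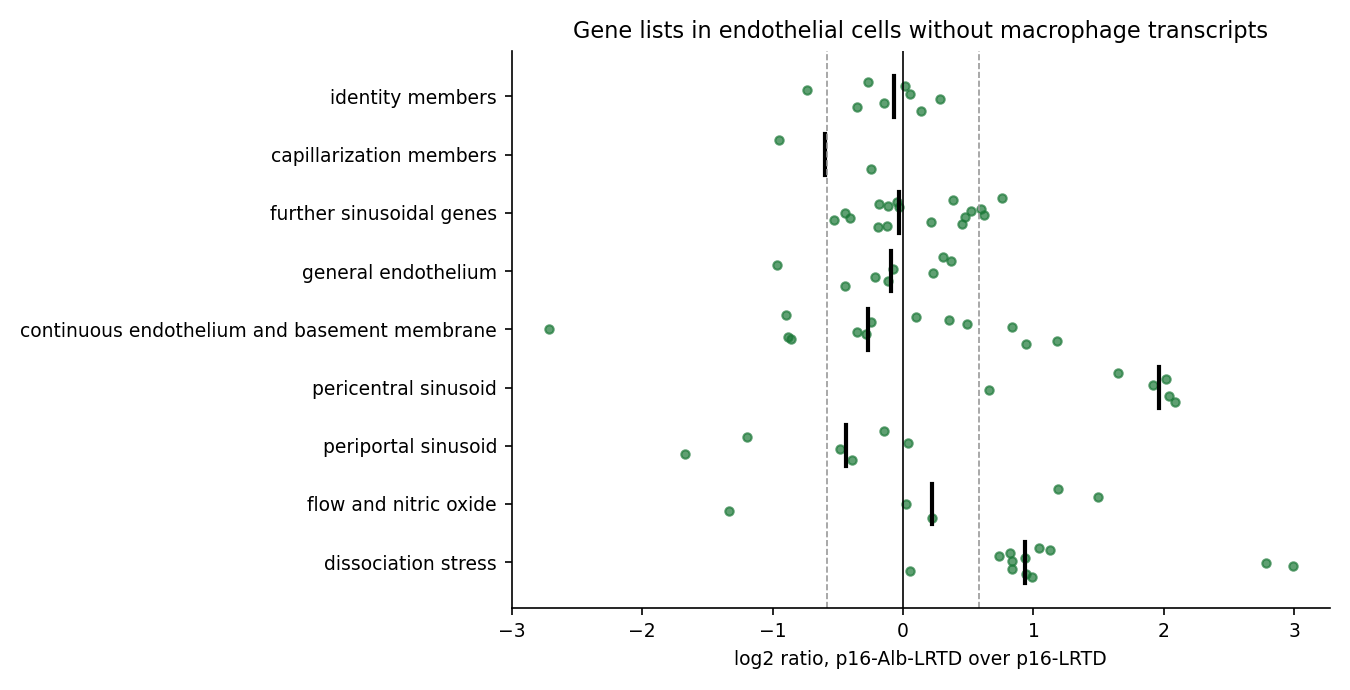
Log2 ratio of p16-Alb-LRTD over p16-LRTD for each gene of 9 lists (points) in endothelial cells without macrophage transcripts, with the list median as a black line and 1.5-fold as dashed lines. Apln, with 0 UMIs in p16-Alb-LRTD, enters its median but has no point. The pericentral list (1.97) and the dissociation list (0.94) lie to the right, and the identity members spread around 0.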

How the data were processed

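Single-cell 3′ libraries (10x v3.1) were made from 1 preparation per genotype. The files deposited by the authors hold counts of UMIs, not normalised, which Cell Ranger 7.0.1 had made on mm10 per the labels, and they were used unchanged. Filters used the barcode limits in the methods of the study, without its integration of the libraries and its later removal of low-count clusters: barcodes with over 5% mitochondrial UMIs, under 2000 or over 7000 genes, or over 50000 UMIs were left out, and no doublet caller was run. UMIs were summed over the cells of a class in each library and given as CPM. Intervals are exact Poisson (levels), exact conditional (ratios) and Clopper-Pearson (shares), at 95%, and a count of 0 allows up to 3 counts. With 1 library per genotype no test and no p-value was possible. Macrophages were cells with at least 15 C1q UMIs per 10000 and under both other limits, and cells without macrophage transcripts had under 5. Lists are described over genes of at least 5 CPM averaged over the libraries, and a gene was called at 1.5-fold. Shares were taken after thinning each cell to 5000 UMIs, which left out 12 and 0 endothelial cells without macrophage transcripts. The members and lists were chosen with earlier results of these data known. Genes outside the lists were named only as the 5 most correlated with Stab2 and with Plvap. The symbol Ccl21a, shared by several features, and Clec4m, not among the features, were left out. Scripts used Python 3.11.15, SciPy 1.17.1 and edgeR 4.0.16 (TMM factors only), and were checked on simulated counts. Alternatives covered cell filters, thresholds, depth, scaling and the shares of zonal parts.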

Additional observations from a re-analysis of the deposited data

Results flagged for a closer look

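With the endothelial class as the rule draws it, Stab2, Oit3 and Dnase1l3 had ratios on opposite sides of 0 in endothelial and in stellate cells, with counting intervals that leave out 0 in both. The stellate log2 ratio exceeded the endothelial one by 0.52 for Stab2, 0.66 for Oit3 and 0.57 for Dnase1l3. The difference was not tested. Without macrophage transcripts only Oit3 (-0.15) kept an endothelial ratio on the other side of 0, while Dnase1l3 (0.14) lay on the stellate side and the interval of Stab2 (0.01, -0.02 to 0.04) held 0. Most of their stellate UMIs lay in stellate barcodes that also held endothelial transcripts, 196 in p16-LRTD and 198 in p16-Alb-LRTD, and without any endothelial UMI the stellate log2 ratio was -0.28 (-0.57 to 0.00) for Stab2, -0.15 (-0.68 to 0.37) for Oit3 and 0.05 (-0.26 to 0.37) for Dnase1l3.

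In barcodes that belonged to none of the classes, which entered no comparison of the identity members, Dnase1l3 stood at 124 CPM in p16-Alb-LRTD against 2.92 CPM in p16-LRTD. The 256 UMIs lay in 10 of 92 barcodes, with 98 in a single one. Fcgr2b stood at 24.8 against 12.5 CPM there, with 51 UMIs in 13 barcodes.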

How the results depend on the processing

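No paired analysis was possible because there was 1 library on either side. Of 310 values under other settings, 129 stayed within the counting interval of the reported value (1.5 times it for shares of genes called), 169 moved outside and 12 changed sign from a member ratio or median whose interval left out 0. A median over genes has no counting interval of its own, and the medians of its genes' lower and upper bounds stood in for it. From values whose interval held 0, a further 5 ratios of Fcgr2b or Stab2 and 3 medians of the further sinusoidal and flow lists changed sign, 20 in all. The alternative of cells without macrophage transcripts was planned, and those run on these cells, as well as the class by Kdr and Ptprb alone, were chosen after seeing the data.

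In the class as drawn the identity median (-0.32) was -0.38 without upper limits, -0.16 with an endothelial limit of 10, -0.49 with a stellate limit of 5, -0.066 without macrophage transcripts, -0.070 by Kdr and Ptprb alone, -0.17 in cells of 10000 to 30000 UMIs, -0.24 with TMM and with median-of-ratios scaling, -0.15 thinned to 5000 UMIs and -0.17 as a mean of per-cell CPM. Plvap (-0.45) was -0.60 without upper limits and with the stellate limit of 5, -0.31 with the endothelial limit of 10, -0.24 without macrophage transcripts and by Kdr and Ptprb alone, -0.32 in the depth window, -0.10 thinned and -0.28 per cell. Cd34 (-1.24) was -0.80 without the cell filter. Dnase1l3 (-0.12) changed sign with the endothelial limit of 10 (0.042), without macrophage transcripts (0.14), by Kdr and Ptprb alone (0.13), in the depth window (0.055), thinned (0.024) and per cell (0.031). Clec4g (-0.20) did so without macrophage transcripts (0.054), by Kdr and Ptprb alone (0.056) and in the depth window (0.0075), and Stab2 (-0.22) without macrophage transcripts (0.012) and by Kdr and Ptprb alone (0.015). Leaving out the macrophage barcodes removes total UMIs that hold few member UMIs, unequally between the libraries.

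Without macrophage transcripts, Cd34 was -0.49 with no cell filter, the identity median 0.024 with TMM, Lyve1 -0.64 with TMM, -0.83 per cell and -0.58 with pooled zonal shares, and Plvap -0.45 with those. The endothelial share in p16-LRTD was 8.63% without the cell filter, 5.02% with the limit of 10, 5.28% with the stellate limit of 5 and 4.73% without macrophage transcripts, and in p16-Alb-LRTD 6.89%, 4.13%, 4.03% and 3.78%. Without a minimum level 11.9% of genes were called higher and 18.5% lower. List medians in the class as drawn were -0.05 for further sinusoidal genes (0.025 with TMM), -0.55 for continuous endothelium (-0.27 without macrophage transcripts), -0.35 for general endothelium (-0.10), 1.60 for pericentral genes (1.97), -0.05 for flow genes (0.22) and 0.70 for dissociation genes (0.94, and 0.78 with TMM). The cause of these moves was not tested. TMM and median-of-ratios moved the endothelial ratios by under 0.11. Depth limits Cd34 above all, with 77 UMIs in p16-Alb-LRTD.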
